A study of Homo sapiens with 6 samples.

Results

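This account covers the well-expressed antisense RNAs of LS174T cells, which are genes annotated as long RNAs transcribed from the strand opposite another gene, together with the genes they overlap. Members were the rows of the deposited count table with the biotype antisense, a chromosome from 1 to 22 and at least 500 counts summed over the 6 libraries, leaving out KCNQ1OT1 and GNAS-AS1. The rule gave 127 members of 5583 antisense rows and 58735 named genes, and 57 of the 127 carry only a clone-based name. The members held 182626 counts, which is 54.9% of the counts of all antisense rows and 0.177% of all counts, and 2248 antisense rows had 0 counts. Because the sum of counts chose the members, their levels are given as a description, with no test.

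LS174T cells derive from a human colorectal adenocarcinoma, and the labels call them goblet-like. The 6 poly(A) RNA libraries comprise 3 of wild-type cells and 3 of the same line with the genotype label FXYD3 knockout. No treatment, time point or clone is named in the labels. FXYD3 encodes a small regulator of the sodium pump, and its RNA was not lower in the libraries labelled knockout: wild-type libraries held 54, 91 and 55 FXYD3 counts and knockout-labelled libraries 79, 131 and 85. Its log2 fold change was 0.54 (adjusted p = 0.0522), so the groups are called wild type and knockout-labelled throughout. A knockout that leaves the RNA in place cannot be told apart here from one that did not occur. Whether the 3 libraries of each group stem from separate cultures is not stated in the labels, so the p-values cover the spread among these 6 libraries alone, and that spread may be technical.

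Antisense transcripts start either from the shared, divergent promoter region of a neighbouring gene or from a start of their own within or beyond it. Many are kept in the nucleus, and their short-lived kin are removed by the nuclear exosome. Some are known to act on the gene next door through chromatin, through transcription across it or through pairing with its RNA, while others carry small nucleolar RNAs in their introns. In this cell line the pairs can be read only as levels of poly(A) RNA of the 2 genes.

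The sequences of a few pairs show what overlap means at the base level. In each pair below, 30 bases from the middle of the longest shared exon stretch are given 5′ to 3′ in capitals, first as the antisense RNA reads and then as the protein-coding partner reads, within the partner's coding sequence. They are taken from the GENCODE release 29 transcripts on GRCh38, and each second line is the reverse complement of the first.
GAS6-AS1 (chr13:113839775-113839804, plus strand): AAGTTGCCCATGAGGTCCTGGCAGGCTTGG
GAS6 (chr13:113839775-113839804, minus strand): CCAAGCCTGCCAGGACCTCATGGGCAACTT
HOTTIP (chr7:27199273-27199302, plus strand): AGGGTTCGTGGCGCGACTCGCCGGGGCCCC
HOXA13 (chr7:27199273-27199302, minus strand): GGGGCCCCGGCGAGTCGCGCCACGAACCCT
AC007743.1 (chr2:56184748-56184777, minus strand): CTCCTCCTTGCTCCACTGCAGCAGCTCCTC
CCDC85A (chr2:56184748-56184777, plus strand): GAGGAGCTGCTGCAGTGGAGCAAGGAGGAG
AL109615.3 (chr6:44000639-44000668, minus strand): AAGGGCCTCCTCCTTGGGCCAGGGCGCCTG
C6orf223 (chr6:44000639-44000668, plus strand): CAGGCGCCCTGGCCCAAGGAGGAGGCCCTT
RUSC1-AS1 (chr1:155320523-155320552, minus strand): GGGTGCTGCGTACTGTTCAATGAGAGCCAT
FDPS (chr1:155320523-155320552, plus strand): ATGGCTCTCATTGAACAGTACGCAGCACCC
These 5 pairs are shown because they are among the largest rises and falls of the members. The longest shared exon stretch measured 123 bases in GAS6-AS1, 86 in HOTTIP, 277 in AC007743.1, 125 in AL109615.3 and 258 in RUSC1-AS1.

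Promoter windows of 2 head-to-head antisense RNAs that rose together with the partner, those with the largest rises, are given next, from RefSeq on GRCh38.p14. Each runs from 250 bases before to 50 bases after the RefSeq start, with the bases from the start on in capitals.
HOTTIP (chr7:27200171-27200470, plus strand): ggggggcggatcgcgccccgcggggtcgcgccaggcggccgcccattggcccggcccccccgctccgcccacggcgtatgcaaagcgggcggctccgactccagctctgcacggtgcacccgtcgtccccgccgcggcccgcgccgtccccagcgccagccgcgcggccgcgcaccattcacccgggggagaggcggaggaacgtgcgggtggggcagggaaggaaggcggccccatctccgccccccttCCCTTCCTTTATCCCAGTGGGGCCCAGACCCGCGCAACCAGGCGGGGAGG
AC007743.1, RefSeq LOC100129434 (chr2:56185721-56186020, minus strand): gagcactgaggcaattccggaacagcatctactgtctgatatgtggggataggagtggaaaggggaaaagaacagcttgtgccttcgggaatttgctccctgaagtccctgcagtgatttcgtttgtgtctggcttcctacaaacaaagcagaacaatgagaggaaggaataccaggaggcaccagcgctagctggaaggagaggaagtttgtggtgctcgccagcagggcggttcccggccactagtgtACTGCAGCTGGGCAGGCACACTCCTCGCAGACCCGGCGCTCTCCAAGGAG
The HOTTIP window holds 41 CpG dinucleotides and has a GC content of 78.0%, while that of AC007743.1 holds 10 CpG and has 55.3%. The RefSeq start of HOTTIP lies 330 bases from the HOXA13 start and faces away from it, so the windows of both genes overlap. In GENCODE coordinates the HOTTIP window lies wholly within HOTTIP, which starts at 27198575, and beyond HOXA13, which ends at 27200106. The overlap of HOTTIP with HOXA13 and the shared exon stretch given above therefore rest on the GENCODE start, not the RefSeq one. The RefSeq starts of AC007743.1 and CCDC85A lie 1780 bases apart. RefSeq windows were matched for 70 of the 127 members. Both strands of each window were searched for the letters CCAAT, found in 26 of the 70 (37.1%) against 35.7% of all 27305 windows, and TATAAA, found in 5 (7.14%) against 12.0%. The median number of CpG dinucleotides was 25.5 in the members' windows and 14 over all windows.

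**Figure D1:**
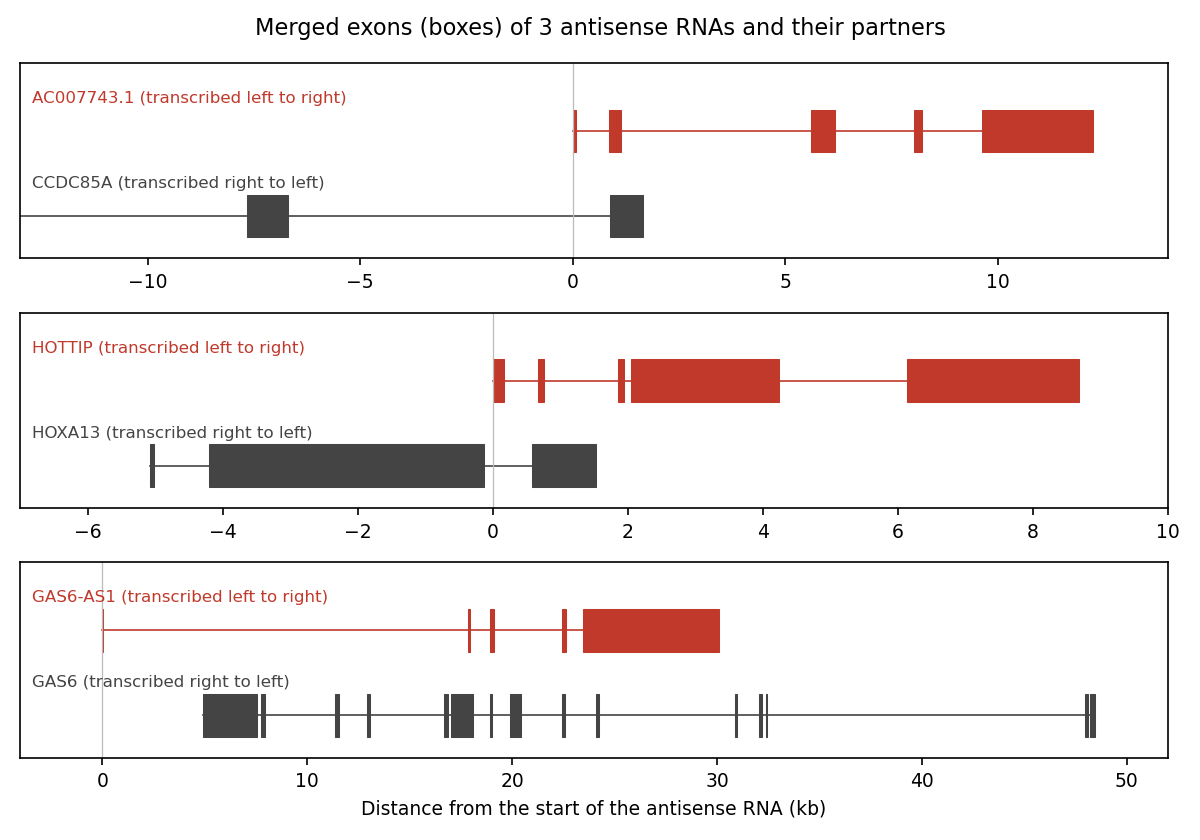
Exon maps of AC007743.1 with CCDC85A, HOTTIP with HOXA13 and GAS6-AS1 with GAS6, as distance from the start of the antisense RNA in kilobases. Boxes are merged exons of GENCODE release 29, lines span the genes, the antisense RNA is red and reads left to right, the partner is dark grey and reads right to left, and CCDC85A runs on beyond the left edge. AC007743.1 and HOTTIP share only the first part of the locus with the partner, while 93.3% of the exon bases of GAS6-AS1 lie in introns of GAS6.

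How reads were counted limits what can be said of such pairs. Of 18 protein-coding genes with over 98% of their exon bases under exons of an opposite-strand gene, 16 had 0 counts, the highest had 24, and 0 reached 60 counts. Of 11656 protein-coding genes with no such cover, 57.3% reached 60 counts. Exon stretches that both strands share therefore contributed few or no counts to this table. Cover by exons of a gene on the same strand went with a like loss: of 278 coding genes with over 98% such cover, 221 had 0 counts and 0 reached 60. Reads from introns of a partner may therefore be counted for members that lie there. The strand setting of the counting is not given in the sources used here, so the strand on which the remaining reads arose cannot be told apart. Among the members, 30 had no exon base under an opposite-strand exon, the median was 7.54% of the exon bases and the highest 48.4%, in AL118506.1. Levels per kilobase are per merged exon length, so they understate genes with much cover.

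Named genes received 15417232 to 19453217 counts per library. The members made up 0.164, 0.173 and 0.164% of these in wild type and 0.184, 0.188 and 0.189% in knockout-labelled cells, and the groups did not overlap in that share. Markers of other cell types were low. The summed level of 6 fibroblast markers was 1.29 to 2.11 CPM in wild type and 6.49 to 8.29 CPM in knockout-labelled cells, with COL3A1 alone at means of 0.313 and 5.63 CPM and COL1A2 at 0. For 4 endothelial markers the sums were 0.0578 to 0.112 and 0.129 to 0.298 CPM, with KDR and PECAM1 at 0, and for 6 immune markers 31.5 to 34.4 and 32.4 to 33.7 CPM, with LYZ alone at means of 32.0 and 32.9 CPM and CD3E and PTPRC at 0. Of 7 goblet markers 6 were tested, and 5 of these (83.3%) were lower and 0 higher, against 12.4% lower over all genes. Their summed levels were 704 to 876 and 517 to 572 CPM, with AGR2 alone at means of 680 and 461 CPM. ATOH1 was not called. CLCA1, which was not tested, had 0, 1 and 1 counts in wild type and 6, 2 and 5 in knockout-labelled cells. All 9 intestinal epithelial markers passed the filter on low counts, led by KRT8 and KRT18. Among them 2 (22.2%), GPA33 and CDX1, were lower and 0 higher, beside the same 12.4% lower over all genes. The part of these differences in the results below was not tested.

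Levels among the 127 members spread widely. Totals over the 6 libraries ran from 501 to 13681 counts with a median of 975, and levels per exonic kilobase from 0.353 to 27.9 CPM with a median of 3.86. The 10 highest per kilobase were AC010503.4 (27.9 CPM per kilobase), AC006329.1 (26.6), FGD5-AS1 (25.9), AC005288.1 (19.0), AL513165.1 (18.4), ZFAS1 (15.5), AL365181.3 (15.4), SNHG7 (14.4), AC124798.1 (12.7) and VPS9D1-AS1 (12.5). FGD5-AS1 had the most counts, with 132, 132 and 132 CPM in wild type and 139, 126 and 138 CPM in knockout-labelled cells. Its partner FGD5, an exchange factor for Cdc42 best known from endothelial cells, had 9 counts over the 6 libraries together. FGD5-AS1 also overlaps NR2C2 head to head, over a shorter stretch of 841 bases, and NR2C2 had 5411 counts. ZFAS1, a snoRNA host, had 31.2, 36.3 and 35.3 CPM in wild type and 36.7, 36.8 and 31.8 CPM in knockout-labelled cells. AL365181.3 lies inside BCAN, the gene of the brain proteoglycan brevican, and was 13.6 times as high per kilobase. Neither FGD5-AS1 (log2 fold change 0.02, adjusted p = 0.83), ZFAS1 (log2 fold change 0.04, adjusted p = 0.814) nor AL365181.3 (log2 fold change 0.01, adjusted p = 0.959) passed the test, and their groups overlapped. AC010503.4 inside DENND1C, a Rab exchange factor gene, and AC005288.1 at the end of MED1, the gene of a Mediator subunit, did not pass either (log2 fold change -0.13, adjusted p = 0.364 and log2 fold change 0.12, adjusted p = 0.501). In values given as 3 against 3, the wild-type libraries come first. AL513165.1, a short RNA of 289 exonic bases with no opposite-strand overlap, had 4.45, 4.21 and 4.66 against 5.88, 5.99 and 6.79 CPM and was called higher (log2 fold change 0.49, adjusted p = 0.0344), but lost that call without any 1 library, with an adjusted p of up to 0.148 without the third knockout-labelled one.

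At the lower edge of the rule, the 3 members just inside were PAXIP1-AS2 with 501 counts, AC139530.1 with 503 and AL391988.1 with 505. The 3 rows just outside were AC004812.2 with 497, TOLLIP-AS1 with 496 and CAPN10-DT with 487. The sum can be reached through 1 group alone, so members were also divided by that. In 114 members both groups held at least 250 counts, and 13 members fell below 250 in 1 group. Among the latter, 6 were called higher below: AC007743.1, SH3BP5-AS1, AL391988.1, AL513165.1, AC026471.1 and AC007388.1. These reached the minimum through the knockout-labelled libraries, and their changes are given as a description.

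Between the groups the antisense RNAs tended to be higher in knockout-labelled cells. By edgeR's quasi-likelihood test at an adjusted p below 0.05, 27 members were higher, 3 were lower and 97 were not called. Over all 15351 tested genes, 24.3% were called, 12.0% higher and 12.4% lower, so 27 of 127 higher (21.3%) stood above that background and 3 of 127 lower (2.36%) below it. The log2 fold change, knockout-labelled over wild type, was above 0 for 95 members and below 0 for 32, against 50.4% and 49.6% of all genes. The median over the members was 0.13 and that over all genes 0.00. In such bulk RNA, fewer cells expressing a gene and less RNA per cell cannot be told apart. The 6 libraries did not overlap between groups for 41 members that were higher and 6 that were lower, against 18.6% and 18.6% of all genes. Among the 114 members with at least 250 counts in both groups, 21 were higher and 3 lower with a median of 0.12. Beyond the 8 largest rises described below, the other 19 members called higher had log2 fold changes between 0.25 in DHRS4-AS1 and 0.55 in AC093157.1. Of the 30 calls, 17 (15 higher and 2 lower) were kept in all 13 other settings tried. The 15 include AC007743.1, SH3BP5-AS1 and AL391988.1, which reached the count minimum through the knockout-labelled libraries, so nothing is read from their calls. Leaving out the first wild-type library lowered the count of called members from 30 to 19, of which 16 were higher and 3 lower.

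**Figure D2:**
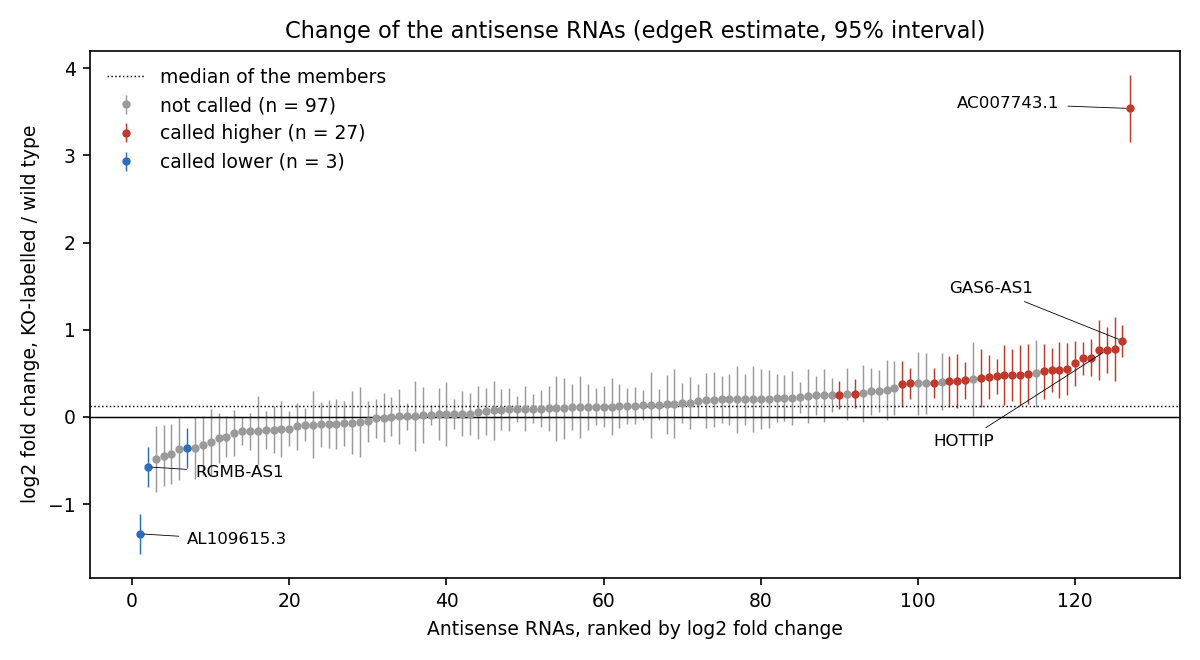
Log2 fold change of each of the 127 antisense RNAs, ranked, with the 95% interval of the edgeR estimate. Red points were called higher, blue points lower and grey points neither, the dotted line is the median of the members, and most points lie slightly above 0, with AC007743.1 far above the rest.

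Other gene classes of the same table were counted in the same way. The 700 tested antisense rows that are no members had 41 higher and 6 lower with a median of 0.19. Of 138 lincRNAs with at least 500 counts, 34 were higher and 15 lower (median 0.14), and of 50 processed transcripts of that depth 13 were higher and 4 lower (median 0.16). The shares called higher were 24.6% of these lincRNAs and 26% of these processed transcripts. They were 21.3% of the members, 5.86% of the other antisense rows and 12.0% of all genes. A share above that of all genes was thus not particular to the members. Protein-coding genes in the members' range of counts, 9007 in all, had 1120 higher and 1212 lower with a median of -0.01. The partners themselves, 108 distinct genes of which 97 were tested, had 15 higher and 17 lower with a median of -0.02. Of 116 tested sense intronic RNAs, 2 were higher and 3 lower (median 0.06). The difference between these sets was not tested. Partner calls moved with single libraries: without the first wild-type library 18 partners were called, and without the second knockout-labelled library 19, in place of 32.

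The largest rise was that of AC007743.1 (ENSG00000233251, chromosome 2, 56173534 to 56185770, minus strand), an antisense RNA that starts head to head with CCDC85A, the gene of a coiled-coil protein (ENSG00000055813, chromosome 2, 56184123 to 56386173, plus strand). AC007743.1 had 18, 17 and 27 counts in wild type and 203, 292 and 242 in knockout-labelled cells. CCDC85A had 5, 5 and 14 counts in wild type and 121, 128 and 106 in knockout-labelled cells. Both genes held few counts in wild-type cells and over 100 in each knockout-labelled library, with no overlap. AC007743.1 rose from 1.22 ± 0.394 to 14.2 ± 0.936 CPM (SD, n = 3), an 11.6-fold rise (log2 fold change 3.54, SE 0.188, adjusted p = 3.59e-14). CCDC85A rose from 0.48 ± 0.337 to 6.9 ± 0.811 CPM (SD, n = 3) (log2 fold change 3.85, SE 0.301, adjusted p = 9.13e-11). The antisense to partner ratio changed by -0.41 (log2, SE 0.235, adjusted p = 0.38), with a 95% interval from -0.87 to 0.05. Only 7.46% of the exon bases of AC007743.1 lie in CCDC85A exons and 90.2% lie outside that gene. On the same strand as CCDC85A the annotation also has AC007744.1, a processed transcript across the whole of AC007743.1, which had 0 counts. Of the CCDC85A exon bases, 49.8% lie under an exon of another gene on the same strand. Stretches under such cover held few or no counts, so the CCDC85A level rests mostly on its other exon bases. For the same reason the 0 counts are not read as absence of AC007744.1 RNA. AC007743.1 entered the members through the knockout-labelled libraries, since its wild-type counts sum to under 250, so that a difference had to be present.

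HOTTIP (ENSG00000243766, chromosome 7, 27198575 to 27207259, plus strand) lies at the end of the HOXA cluster and is known to bind a chromatin complex that keeps the neighbouring HOXA genes active. HOTTIP had 7.64, 7.75 and 6.52 CPM in wild type and 12.5, 12.2 and 12.6 CPM in knockout-labelled cells. HOXA13, a homeobox gene of posterior patterning (ENSG00000106031, chromosome 7, 27193503 to 27200106, minus strand), had 39.3, 43.3 and 37.2 CPM in wild type and 67.4, 67.3 and 71 CPM in knockout-labelled cells. In both genes every knockout-labelled library was above every wild-type library. HOTTIP rose (log2 fold change 0.77, SE 0.127, adjusted p = 4.11e-05), as did HOXA13 (log2 fold change 0.78, SE 0.0743, adjusted p = 4.38e-09), and the ratio moved by -0.01 (log2, SE 0.168, adjusted p = 0.975), with a 95% interval from -0.34 to 0.32. Of the HOTTIP exon bases 1.69% lie in HOXA13 exons and 3.28% in its introns, with the rest outside that gene, and 18.4% lie under an exon of another gene on the same strand. At HOXA11-AS, the other HOXA antisense member, the log2 fold change was 0.12 (adjusted p = 0.568) and that of HOXA11 was -0.26 (adjusted p = 0.0791).

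A further 5 antisense RNAs were among the 8 largest rises. SH3BP5-AS1 overlaps the end of SH3BP5, the gene of a JNK-binding protein, and had 4.69, 5 and 4.04 CPM in wild type and 6.59, 7.73 and 9 CPM in knockout-labelled cells (log2 fold change 0.76, SE 0.167, adjusted p = 0.00108). SH3BP5 had 6.36, 3.76 and 7.14 against 6.01, 6.86 and 4.71 CPM (log2 fold change 0.04), with overlapping groups. TNFRSF14-AS1, head to head with TNFRSF14, the gene of the TNF family receptor HVEM, had 14.4, 14.4 and 12.4 CPM in wild type and 20.8, 21.5 and 23.7 CPM in knockout-labelled cells (log2 fold change 0.68, SE 0.104, adjusted p = 1.28e-05). TNFRSF14 rose less, at 43.4, 41.8 and 46.8 against 48.7, 53.8 and 50.7 CPM (log2 fold change 0.22, adjusted p = 0.0354), and the ratio rose by 0.46 (log2, SE 0.142, adjusted p = 0.0211). VPS9D1-AS1, an RNA inside VPS9D1 that has been studied in colorectal cancer, had 16.5, 16.9 and 17.5 CPM in wild type and 25.8, 28.8 and 26.3 CPM in knockout-labelled cells (log2 fold change 0.67, SE 0.0931, adjusted p = 3.00e-06). VPS9D1 had 9.2, 9.44 and 6.58 against 10.8, 10.5 and 11.6 CPM (log2 fold change 0.38, adjusted p = 0.0481). AL391988.1 lies inside SLC18A2, the vesicular monoamine transporter gene, with 95.9% of its exon bases in SLC18A2 introns, and had 3.07, 3.76 and 3.97 against 5.95, 6.6 and 5.96 CPM (log2 fold change 0.78, SE 0.178, adjusted p = 0.00171). SLC18A2 was low, with 21, 15 and 8 counts in wild type and 27, 46 and 21 in knockout-labelled cells (log2 fold change 1.06, adjusted p = 0.0397). AC097478.1 had 9.89, 9.16 and 8.63 against 14.9, 12.1 and 15.6 CPM (log2 fold change 0.61, SE 0.126, adjusted p = 0.000534). SH3BP5-AS1 and AL391988.1 are among the members with under 250 wild-type counts, so a difference had to be present, and nothing is read from their p-values. Calls on the partners TNFRSF14, SLC18A2 and VPS9D1 were lost without single libraries, with adjusted p of up to 0.155 (without the second knockout-labelled), 0.226 (without the same library) and 0.288 (without the third wild-type). The TNFRSF14-AS1 ratio had an adjusted p of up to 0.227 without the third knockout-labelled library.

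GAS6-AS1 was the 1 member called higher whose partner was called lower. GAS6 encodes the secreted ligand of the receptor tyrosine kinases TYRO3, AXL and MERTK (ENSG00000183087, chromosome 13, 113820549 to 113864067, minus strand). GAS6-AS1 (ENSG00000233695, chromosome 13, 113815630 to 113845744, plus strand) had 18.3, 20.8 and 18.8 CPM in wild type and 32.9, 35.1 and 38.1 CPM in knockout-labelled cells. GAS6 had 129, 135 and 147 CPM in wild type and 99, 105 and 90.4 CPM in knockout-labelled cells. The antisense RNA was higher and its partner lower in every knockout-labelled library than in any wild-type library. GAS6-AS1 rose from 19.3 ± 1.3 to 35.4 ± 2.62 CPM (SD, n = 3) (log2 fold change 0.87, SE 0.09, adjusted p = 1.82e-08), while GAS6 fell from 137 ± 9.18 to 98.1 ± 7.26 CPM (SD, n = 3) (log2 fold change -0.48, SE 0.0652, adjusted p = 2.12e-06). The ratio of the pair rose by 1.35 (log2, SE 0.128, adjusted p = 3.29e-23) in limma's test over all 651 antisense and partner pairs. That test drew the spread mostly from all pairs together, not from the libraries of this pair alone. Nothing is therefore read from the size of the ratio's p-value. Of the GAS6-AS1 exon bases 93.3% lie in GAS6 introns and 5.87% in GAS6 exons, and the strand on which the reads in these stretches arose cannot be told apart.

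**Figure D3:**
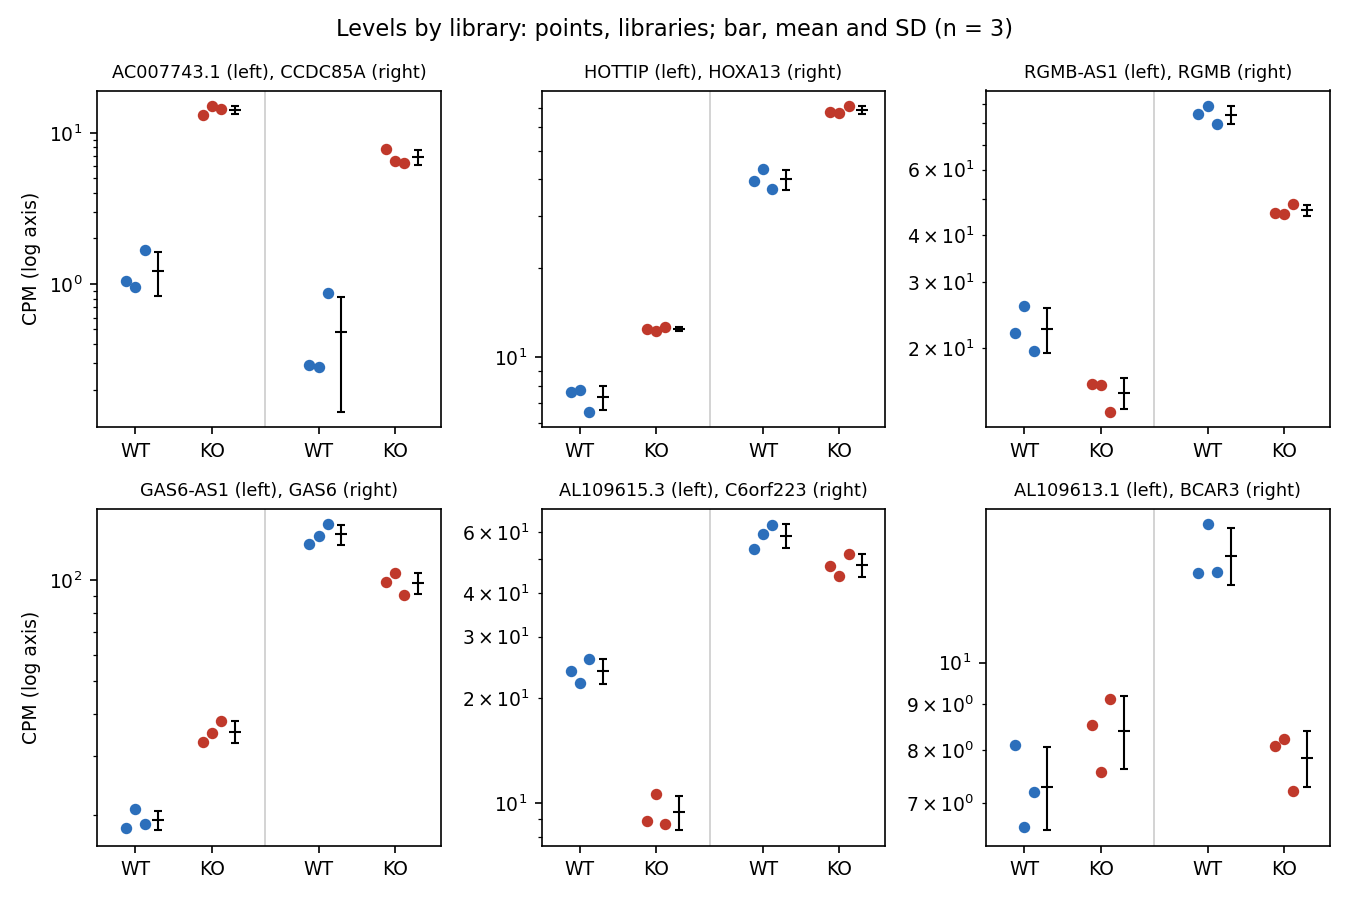
Level of 6 antisense RNAs (left side of each panel) and their partners (right side) in each library, as CPM on a log axis, with the mean and SD of 3 libraries beside the points. In the pairs of AC007743.1 and HOTTIP both genes are higher in knockout-labelled libraries, in the RGMB pair both are lower, in the GAS6 pair they part, AL109615.3 falls further than C6orf223, and BCAR3 falls while AL109613.1 overlaps between groups.

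Only 3 members were called lower, and the main partner of each, the one with the longest overlap, was called lower as well. AL109615.3, RefSeq symbol SCIRT (ENSG00000237686, chromosome 6, 43995723 to 44074652, minus strand), spans the reading frame C6orf223 and had 23.8, 22 and 25.8 CPM in wild type and 8.86, 10.6 and 8.7 CPM in knockout-labelled cells (log2 fold change -1.34, SE 0.112, adjusted p = 3.21e-10). C6orf223 had 53.6, 59.1 and 62.8 CPM in wild type and 47.8, 44.8 and 52 CPM in knockout-labelled cells (log2 fold change -0.28, SE 0.0778, adjusted p = 0.00893), and the ratio fell, with a change of -1.07 (log2, SE 0.148, adjusted p = 1.16e-10). RGMB-AS1 lies inside RGMB, the gene of a repulsive guidance molecule that acts as a coreceptor for bone morphogenetic proteins. RGMB-AS1 had 21.9, 25.8 and 19.6 CPM in wild type and 16, 15.9 and 13.5 CPM in knockout-labelled cells (log2 fold change -0.57, SE 0.111, adjusted p = 0.00028), and RGMB had 84.7, 88.8 and 79.5 against 46, 45.6 and 48.5 CPM (log2 fold change -0.85, SE 0.0695, adjusted p = 2.06e-10). With 84.5% of its exon bases in RGMB introns, the ratio of RGMB-AS1 moved by 0.29 (log2, SE 0.14, adjusted p = 0.264). RUSC1-AS1 overlaps RUSC1 head to head over 3281 bases and FDPS tail to tail over 3804 bases, so FDPS is its main partner. FDPS is the gene of farnesyl diphosphate synthase in the cholesterol pathway. RUSC1 held 7271 counts over the 6 libraries, and its change is not given here. RUSC1-AS1 had 17.4, 24.1 and 20.5 CPM in wild type and 15.6, 17.4 and 15.4 CPM in knockout-labelled cells (log2 fold change -0.35, SE 0.112, adjusted p = 0.0223). FDPS had 167, 155 and 164 against 123, 119.7 and 122 CPM (log2 fold change -0.42, adjusted p = 1.96e-06). The call on RUSC1-AS1 was lost without the second wild-type, the first knockout-labelled or the third knockout-labelled library, with an adjusted p of up to 0.135, and that on C6orf223 without the second knockout-labelled library (adjusted p = 0.0716).

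Of the 127 members, 110 overlap an opposite-strand gene, all with a protein-coding main partner, and 38 overlap more than 1. Both genes were tested in 99 pairs. Their log2 fold changes had the same sign in 53 of 99 pairs (53.5%), against 377 of 651 (57.9%) over all antisense and partner pairs of the table. Across the 99 pairs Pearson's r of the log2 fold changes was 0.69 and Spearman's rho 0.31. Without AC007743.1 these were 0.32 and 0.29 over 98 pairs. Both genes of a pair come from the same libraries, so this is a description. Of the 27 members called higher, the partner was called higher in 7, lower in 1, not called in 12 and not tested in 3, and 4 had no partner. Of the 97 members not called, 8 had a partner called higher and 13 a partner called lower. Per exonic kilobase 46 members were higher than their partner, and the median of the member over partner level was 0.672.

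**Figure D4:**
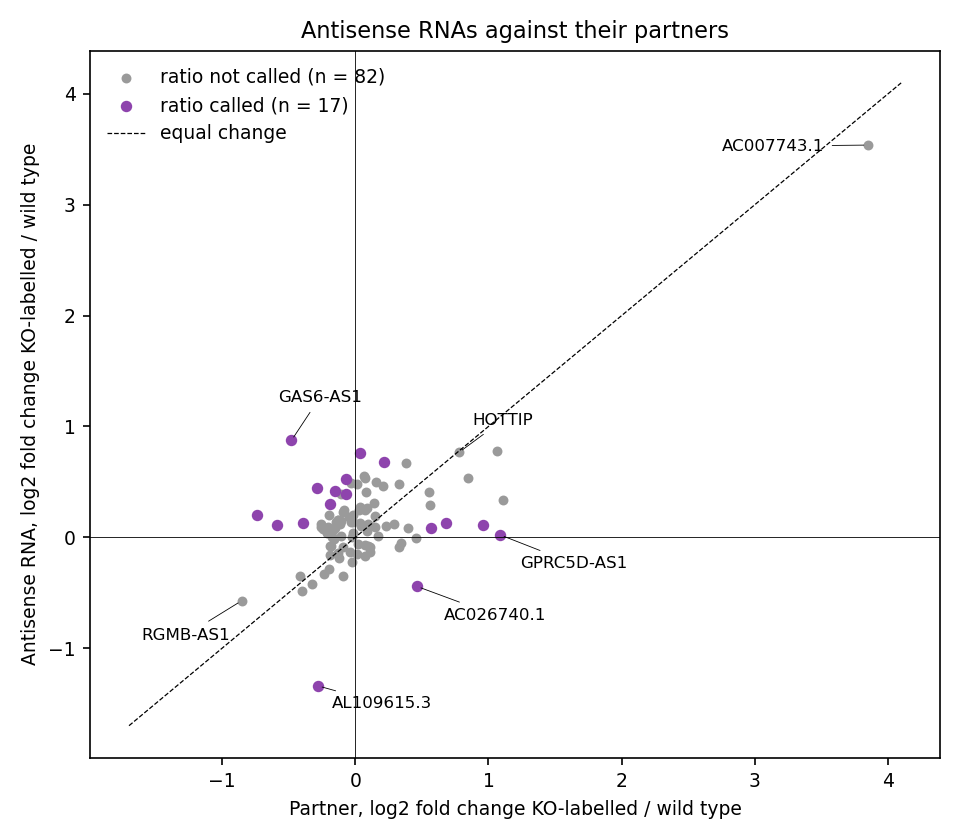
Log2 fold change of each antisense RNA (vertical axis) against that of its partner (horizontal axis) for the 99 pairs with both genes tested. Purple points are the 17 pairs whose ratio was called, the dashed line marks equal change, and GAS6-AS1 lies at the upper left, where the antisense RNA is higher and the partner lower.

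Unequal change within a pair was tested as the difference, per library, of the log2 CPM of the antisense RNA and of its partner. The spread was drawn mostly from all pairs together, as a trend on the level of the antisense RNA alone. Counting noise of a scarce partner was therefore not allowed for in the p-value. The size of a ratio's p-value, here and above, mostly reflects this pooled spread and not that of the single pair. Over all 651 pairs limma called 47 ratios (7.22%), 28 higher (4.3%) and 19 lower (2.92%). Among the 99 pairs of the members it called 17, of which 11 were higher and 6 lower in knockout-labelled cells, and 38 had an unadjusted p below 0.05. The number called fell to 9 without the first and to 7 without the third knockout-labelled library. The ratios of 4 pairs, those of GAS6-AS1, AL109615.3, AL109613.1 and AC026740.1, stayed called in all 11 other settings tried. AL109613.1 lies inside BCAR3, the gene of an adaptor protein named for antiestrogen resistance, and had 8.1, 6.57 and 7.2 against 8.53, 7.57 and 9.12 CPM. BCAR3 fell, with 12.6, 14.2 and 12.6 against 8.08, 8.24 and 7.21 CPM (log2 fold change -0.74, adjusted p = 4.87e-05), so the ratio rose by 0.95 (log2, SE 0.18, adjusted p = 1.30e-05). AC026740.1 lies wholly in an intron of TPPP, the gene of a tubulin polymerization protein, and had 6.83, 6.07 and 7.14 against 4.65, 4.14 and 5.96 CPM (log2 fold change -0.44, adjusted p = 0.0607). TPPP rose, with 32.4, 33 and 38.7 against 45.6, 47.6 and 50.2 CPM (log2 fold change 0.46, adjusted p = 8.97e-05), which gave a ratio change of -0.92 (log2, SE 0.202, adjusted p = 0.000315).

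In the other 4 of the 8 ratios with the smallest p the partner held fewer counts than the antisense RNA. In edgeR's fit the SE of the partner's own log2 fold change was 0.402 for GPRC5D, 0.236 for SNAI3, 0.338 for LBX2 and 0.237 for FAM69B. Each exceeds the SE of the ratio given below. The ratio p-values of these 4 pairs therefore understate the noise of the partner, and nothing is read from them. GPRC5D-AS1 spans GPRC5D, an orphan receptor gene, and had 6.77, 6.12 and 6.58 against 5.56, 6.7 and 7.45 CPM, with overlapping groups. GPRC5D had 8, 8 and 17 counts in wild type and 21, 29 and 22 in knockout-labelled cells (log2 fold change 1.09, adjusted p = 0.0491), and the ratio changed by -1.15 (log2, SE 0.198, adjusted p = 2.50e-06). With HEBP1, the partner of most counts, the ratio of GPRC5D-AS1 was not called. SNAI3-AS1 had 4.92, 7.7 and 5.84 against 7.11, 7.16 and 5.72 CPM and SNAI3, a zinc finger gene of the Snail family, 2.2, 2.14 and 3.73 against 4.72, 6.6 and 4.17 CPM (log2 fold change 0.96, adjusted p = 0.00356), a ratio change of -0.82 (log2, SE 0.196, adjusted p = 0.0011). The homeobox gene LBX2 had 28, 35 and 23 counts in wild type and 12, 24 and 22 in knockout-labelled cells and did not pass the test (log2 fold change -0.59, adjusted p = 0.228). LBX2-AS1 had 9.95, 10.9 and 9.5 against 9.76, 12.6 and 10.4 CPM, and the ratio rose by 0.71 (log2, SE 0.163, adjusted p = 0.000583). SNHG7, a snoRNA host, had 62.1, 55.9 and 63.6 against 60.2, 67.5 and 64.9 CPM and FAM69B 2.66, 2.53 and 2.48 against 3.04, 3.38 and 5 CPM, a ratio change of -0.45 (log2, SE 0.106, adjusted p = 0.00113) with neither gene called. These 4 calls were lost without single libraries. Adjusted p reached 0.174 for the GPRC5D-AS1 ratio and 0.0822 for the LBX2-AS1 ratio without the first knockout-labelled library, 0.228 for the SNAI3-AS1 ratio without the third, and 0.397 for the SNHG7 ratio without the third wild-type library. The calls on the partners were lost too, with adjusted p of up to 0.212 for GPRC5D without the first wild-type library and of 0.0577 for SNAI3 without the second knockout-labelled one.

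Position relative to the main partner, the one with the longest overlap, divided the members into 5 arrangements. Head-to-head members, which overlap the partner at the 5′ ends of both genes, numbered 39, of which 12 were higher and 0 lower with a median log2 fold change of 0.19. Their tested partners had 5 higher and 3 lower with a median of -0.04. Tail-to-tail members numbered 34, with 4 higher, 1 lower and a median of 0.09, and their partners had 2 higher and 6 lower. The 25 members inside a partner had 3 higher and 1 lower (median 0.08), and their partners 6 higher and 7 lower. The 12 that span a partner had 4 higher and 1 lower with a median of 0.11. The 17 without an opposite-strand overlap had 4 higher and 0 lower with a median of 0.22. By exons, the 40 members with over 50% of their exon bases in partner introns had 5 higher and 1 lower (median 0.08), and the 59 with over 50% outside the partner had 16 higher and 1 lower (median 0.12). Against 12.0% higher over all genes, the share called higher was 30.8% head to head, 11.8% tail to tail, 12.0% inside a partner, 33.3% spanning one and 23.5% without overlap, so the tail-to-tail and inside groups lay at the background. These shares include members that reached the count minimum through the knockout-labelled libraries. They are AC007743.1, AC026471.1 and AC007388.1 (head to head), SH3BP5-AS1 (tail to tail), AL391988.1 (inside) and AL513165.1 (no overlap). No share was computed without them, so the shares are a description. Partners called higher were 13.2% of 38 tested head to head, 6.90% of 29 tail to tail, 25% of 24 holding a member inside and 25% of 8 spanned. Partners called lower were 7.89%, 20.7%, 29.2% and 12.5% in the same order, against 12.4% over all genes. Partners of the members just named are included, so these shares are a description too. Some members counted elsewhere also lie head to head with another coding gene. These are FGD5-AS1, ZFAS1, RUSC1-AS1, AC074117.1, AC005288.1, TMEM147-AS1, AC078883.1, ELF3-AS1 and AC068888.1 (tail to tail), ZNF213-AS1, THUMPD3-AS1 and AC009133.1 (spanning) and AC100810.1 (inside). Of them RUSC1-AS1 was lower, ZNF213-AS1 higher and the rest not called, so the head-to-head share depends on the choice of main partner. The difference between arrangements was not tested.

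**Figure D5:**
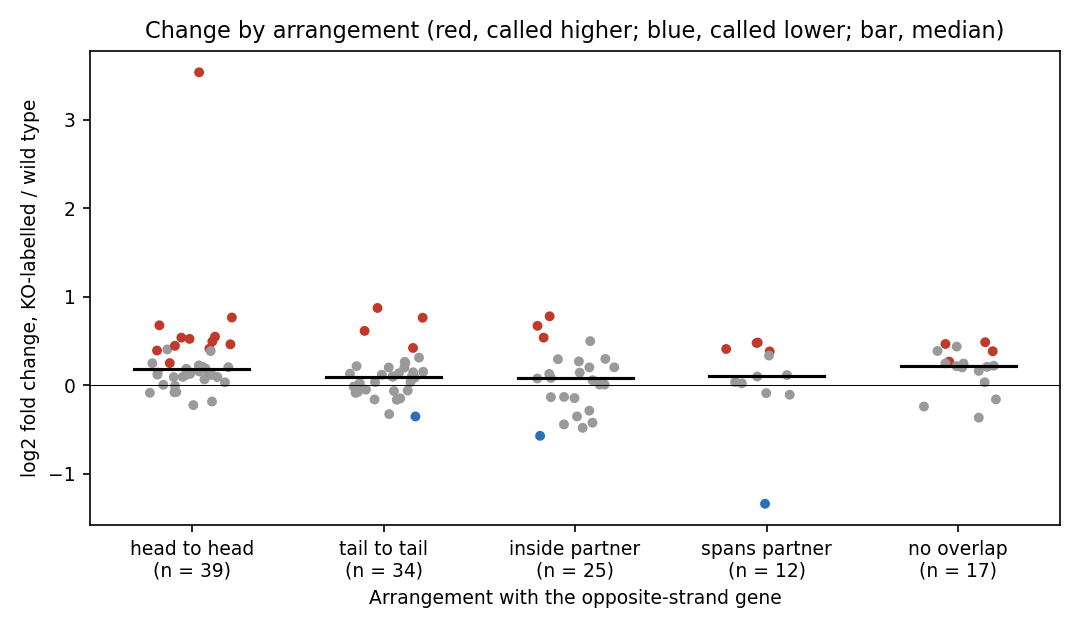
Log2 fold change of the 127 members by arrangement with the opposite-strand gene (the main partner where there are several), 1 point per member, with the median as a bar. Red points were called higher and blue points lower, and the head-to-head and the non-overlapping groups hold 0 blue points.

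Among head-to-head members, several rose beside a partner that was not called. These were chosen after their values were seen. GABPB1-AS1, opposite the gene of a GA-binding protein subunit, had 36.3, 36.8 and 32.3 against 42.2, 45.7 and 50.4 CPM (log2 fold change 0.39, SE 0.0828, adjusted p = 0.000749), while GABPB1 had 21.4, 20.6 and 23.2 against 21, 19.6 and 21.4 CPM (log2 fold change -0.07, adjusted p = 0.632), and the ratio rose by 0.46 (log2, SE 0.115, adjusted p = 0.00174). FBXL19-AS1 rose from 5.94 ± 0.501 to 8.57 ± 1.25 CPM (SD, n = 3) (log2 fold change 0.52, adjusted p = 0.0123) beside FBXL19, an F-box gene, at 48.4, 49.6 and 51.2 against 44.2, 49.4 and 48.4 CPM (log2 fold change -0.07, adjusted p = 0.548). AC093157.1 had 6.19, 5.79 and 5.4 against 8.66, 8.29 and 8.52 CPM (log2 fold change 0.55, adjusted p = 0.00595) beside DPH5, a diphthamide synthesis gene, with a log2 fold change of 0.07. The call on FBXL19-AS1 was lost without the first wild-type or the third knockout-labelled library, with an adjusted p of up to 0.110, and the GABPB1-AS1 ratio without the third library of either group, with an adjusted p of up to 0.0686. In 19 pairs the RefSeq promoter windows of the antisense RNA and the facing gene overlapped. Of these 19 antisense RNAs 6 were higher and 0 lower (median 0.22), and of the 19 facing genes 2, HOXA13 and ZBED5, were higher and 0 lower with a median of 0.02. These are 31.6% and 10.5% called higher against 12.0% over all genes, so the facing genes lay near the background. The 6 include AC007388.1, which reached the count minimum through the knockout-labelled libraries, so the share of the antisense RNAs is a description.

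Members with no overlapping opposite-strand gene were compared with the gene of the nearest start, and 13 of the 17 had a divergent start 1 to 585 bases away. MAFG-DT starts 115 bases from MAFG, the gene of a small Maf transcription factor, and had 15.3, 15.7 and 17.6 CPM in wild type and 21.7, 23.1 and 22.3 CPM in knockout-labelled cells (log2 fold change 0.47, SE 0.0981, adjusted p = 0.000719). MAFG had 84.9, 91.4 and 87.1 against 91.6, 92.4 and 90.9 CPM (log2 fold change 0.06, adjusted p = 0.519). OTUD6B-AS1 starts 7 bases from the deubiquitinase gene OTUD6B and had 30.7, 27 and 28.2 against 34.3, 34.2 and 34.9 CPM (log2 fold change 0.27, SE 0.0814, adjusted p = 0.017). OTUD6B itself had 27.6, 25.9 and 22.5 against 26.1, 26.1 and 21.7 CPM (log2 fold change -0.04, adjusted p = 0.812). Both antisense RNAs rose with no overlap between groups, and neither neighbour was called. CEBPA-DT, beside the CCAAT enhancer-binding factor gene CEBPA, had 8.62, 9.95 and 9.94 against 10.2, 12.2 and 10.5 CPM (log2 fold change 0.22, adjusted p = 0.24) and did not pass the test. AC124798.1 had 31.1, 33.5 and 30.8 against 45.8, 42 and 36.9 CPM (log2 fold change 0.38, SE 0.0852, adjusted p = 0.00124), and its nearest start, 8682 bases away, is that of KCNJ11, a subunit gene of the ATP-sensitive potassium channel. KCNJ11 fell, with 12.5, 11.4 and 10.4 against 7.37, 9.16 and 8.04 CPM (log2 fold change -0.48, adjusted p = 0.00868). AC006329.1 had 16.5, 15.6 and 19.3 against 18.2, 22.4 and 20.2 CPM (log2 fold change 0.25, adjusted p = 0.0982) and was not called. Of the 17 nearest-start genes 1 was higher and 1 lower. OTUD6B-AS1 lost its call without the second wild-type or the third knockout-labelled library, with an adjusted p of up to 0.0607.

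Grouped by what lies next to them, the members gave the following values, with groups chosen after the values were seen and therefore without a test. Beside developmental transcription factor genes lay 12 members, and 4 of them were called higher: HOTTIP, FEZF1-AS1 (log2 fold change 0.54, adjusted p = 0.00148), NR2F1-AS1 (0.41, adjusted p = 0.0440) and DLX6-AS1 (0.48, adjusted p = 0.0365). The share over all genes is 12.0%, and since the group was chosen with these values in view, nothing is read from its own. FEZF1, a zinc finger gene of the forebrain, rose by 0.85 and NR2F1, an orphan nuclear receptor gene, by 0.56 on the log2 scale, both called, while DLX6 was at 0.33 (adjusted p = 0.139). NR2F1-AS1 and DLX6-AS1 lost their calls in 10 and 7 of 13 other settings. Among 3 members beside cholesterol synthesis genes or their regulator, RUSC1-AS1 was called lower, AP002387.1 inside DHCR7 had a log2 fold change of -0.42 (adjusted p = 0.0640) and SREBF2-AS1 of 0.03 (adjusted p = 0.903). The partners FDPS, DHCR7 and SREBF2 were all called lower, at -0.42, -0.33 and -0.18. The 4 snoRNA host RNAs SNHG7, SNHG12, SNHG10 and ZFAS1 had log2 fold changes from 0.04 to 0.14 with 0 called. The 3 members beside CTBP1 and CTBP2, genes of corepressors, had 0 called.

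Genes of the machinery that removes or senses such RNAs were read from 2 lists. Of 29 tested genes of nuclear RNA decay, which include the exosome and its cofactors, 0 were higher and 4 lower. The median log2 fold change was -0.08, and the 13.8% called lower lay near the 12.4% over all genes. The 4 were EXOSC8 (-0.41), MPHOSPH6 (-0.24), EXOSC3 (-0.23) and CPSF3 (-0.20), of which EXOSC8 and EXOSC3 encode exosome subunits. The call on EXOSC8 alone was kept in all settings, and the other 3 had adjusted p of up to 0.180 when 1 library was left out. Of 28 tested genes of double-stranded RNA sensing, editing and small-RNA processing, 5 (17.9%) were higher and 0 lower, with a median of 0.06. Among these were the oligoadenylate synthetase genes OAS2 (1.16), OAS3 (0.67) and OAS1 (0.36) and MAVS (0.31), the adaptor of cytoplasmic RNA sensors, together with the editing enzyme gene ADARB1 (0.24). ZBP1, a sensor gene, was at 0 in all libraries. The background for both lists is the 12.0% higher and 12.4% lower of all genes, and any relation to the antisense RNAs was not tested.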

How the data were processed

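RNA of 3 wild-type and 3 knockout-labelled LS174T libraries was read from 1 table of counts. The authors deposited whole-number read counts per gene with no normalization. HISAT2 2.0.5 and featureCounts 1.5.0-p3 are named in the submitters' processing notes, which also list the mouse build mm10. All 58735 gene identifiers are human and match GENCODE release 29 in start, end and merged exon length, so coordinates are on GRCh38. How strand and multiply matching reads were treated is not given in the sources used here. Rows without a gene name (232, holding 0.13 to 0.25% of the counts of a library) were left out. Libraries held 15417232 to 19453217 counts. Reads carried no molecular identifiers.

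Groups were compared by the quasi-likelihood test of edgeR (version 4.0.16, R 4.3.3, two-sided, TMM, filterByExpr with a minimum count of 10, robust) of 3 against 3 libraries over all genes, with Benjamini-Hochberg adjustment and calls at an adjusted p below 0.05. Levels are TMM-scaled CPM computed from the deposited counts. The partner was the overlapping opposite-strand gene, protein-coding where there was one, with the longest overlap. Ratios were tested with limma 3.58.1 on log2 CPM differences (prior count 0.5) over all pairs with both genes tested. The expected spread was drawn from all pairs as a trend on the level of the antisense RNA. Both steps were checked on simulated data. Python 3.11.15 was used for tables, sequences and plots.

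The members and gene lists were chosen with earlier results of these data known. Genes were named by rule: the 10 members of most counts per exonic kilobase, the 8 largest called rises and falls without overlap between groups, the 8 smallest p-values of the ratio, the 5 of most counts without a partner, their partners, and the 3 rows on either side of the count minimum. Other names were chosen after their values were seen, as were the groups by neighbouring genes. Some genes are not reported here. Alternatives were other scalings, filters, tools (DESeq2 1.42.0, limma voom), prior counts and partners, a block on the replicate number, and leaving out single libraries.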

Additional observations from a re-analysis of the deposited data

How the results depend on the processing

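Counts of calls kept within 1.5 times of the reported ones under other scalings, filters and tools. With libraries left out in turn, calls ran from 2711 to 4590 over all genes (3735 with all 6), from 19 to 32 among the members (30), from 18 to 39 among the partners (32) and from 7 to 19 among the ratios (17). The cause was not tested; each such fit has 1 library fewer, and the lowest counts for members and partners came without the first wild-type library. Replicate numbers did not pair the libraries: deviations of same-numbered libraries correlated at 0.02, -0.06 and -0.08. With the replicate number as a block, 2953 genes, 25 members (22 higher, 3 lower), 20 partners and 16 ratios were called. Among single genes and ratios, 979 values kept their direction and side of the threshold, 162 lost the call, 6 gained one and 20 turned sign, all of these in genes that were not called. The AL365181.3 log2 fold change was -0.0051 without a filter. With a library left out, log2 fold changes that turned sign ran from -0.047 to 0.054 for AL365181.3, from -0.031 to 0.102 for ZFAS1, from -0.00098 to 0.197 for AC005288.1, from -0.00068 to 0.182 for MED1, from -0.0013 to 0.064 for FGD5-AS1, from -0.20 to 0.21 for SH3BP5, from -0.074 to 0.123 for GPRC5D-AS1, from -0.0098 to 0.185 for LBX2-AS1, from -0.029 to 0.31 for SNAI3-AS1, from -0.30 to 0.068 for PAXIP1-AS2, from -0.012 to 0.34 for AC139530.1 and from -0.18 to 0.25 for AC004812.2. DESeq2 called 20 members higher and 3 lower, and total-count scaling 30 and 3. Depth limits the members near 500 counts, whose standard errors reached 0.206 on the log2 scale.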
